A study of Mus musculus with 22 samples.

Results

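G-quadruplex (G4) and open chromatin regions were compared in control mouse embryonic stem (ES) cells, using the 4 scramble KD peak lists among the 16 peak lists and 22 samples of the series. The chosen lists were G4 ChIP-seq replicates 1 and 2 and ATAC-seq replicates 1 and 2, and every peak of each list was kept. They held 140119 and 389434 G4 peaks, and 78571 and 96994 ATAC peaks. The study depleted the telomeric RNA TERRA, and these lists come from its control arm.

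All libraries came from 16.7 cells, a hybrid CAST/Ei x 129/Sv/Jae female ES line, so every sample stands for 1 cell line. Cells were grown with serum and LIF, were taken off feeder fibroblasts 1 passage before nucleofection, and received a scramble LNA gapmer for 12 h. The scramble oligonucleotide has no TERRA target but is still a nucleofected nucleic acid, and untreated cells were not analysed here. G4 chromatin was captured with BG4, an antibody raised against folded G-quadruplexes. Open chromatin was tagged with a transposase kit. Reads of both assays were aligned to the mm10 (GRCm38) reference rather than to the genomes of the hybrid's parents. Both G4 lists were called against the same scramble KD input library, so an irregularity of that input would enter both, and the ATAC lists were called with no input. The labels do not say whether replicates came from separate cultures, so the spread between them may be technical.

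A G-quadruplex is a stack of guanine tetrads that a single strand can fold into where several runs of guanine lie close together. Such sequences are frequent in CpG-rich promoters and in simple repeats. ATAC-seq marks DNA that is not covered by nucleosomes, mainly active promoters, enhancers and CTCF-bound insulators, so the overlap of the assays gives the part of the BG4 signal that lies in open chromatin.

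To show examples of each class, high-ranked stretches holding a chosen motif are printed 5′ to 3′ from GRCm38. Each has 150 bases and lies outside annotated exons. The motif was a condition of the choice, so its presence is not a result. Except for the TG repeat, sites with more than 25% repeat or low-complexity bases were passed over. Capitals mark a G4 motif, defined as 4 runs of at least 3 G with loops of 1 to 7 bases, a run of at least 10 TG, a CTCF core or the octamer ATTTGCAT. The first pair held peaks of both assays in both replicates. The first of them lay in intergenic sequence, -9414 bp from the start of Rny3 (upstream negative), at chr6:47772201-47772350, minus strand. The second lay -504 bp from the start of Erdr1 at chrX:170009713-170009862, plus strand.
G4 and ATAC 1: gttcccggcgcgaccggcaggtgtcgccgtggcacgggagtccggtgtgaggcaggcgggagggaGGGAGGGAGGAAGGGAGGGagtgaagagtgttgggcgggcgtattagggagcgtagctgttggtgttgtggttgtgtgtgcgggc
G4 and ATAC 2: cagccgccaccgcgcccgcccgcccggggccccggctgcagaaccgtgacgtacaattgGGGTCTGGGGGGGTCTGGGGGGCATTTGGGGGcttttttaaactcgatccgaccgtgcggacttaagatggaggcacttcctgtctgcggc

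The next pair held G4 peaks in both replicates and no ATAC peak in either. The first lay in an intron near Zfp420 at chr7:29864777-29864926, minus strand, and repeats a guanine-rich unit. The second lay in an intron at chr4:150514382-150514531, plus strand, 137588 bp from the start of Slc45a1, and is a TG repeat.
G4 only 1: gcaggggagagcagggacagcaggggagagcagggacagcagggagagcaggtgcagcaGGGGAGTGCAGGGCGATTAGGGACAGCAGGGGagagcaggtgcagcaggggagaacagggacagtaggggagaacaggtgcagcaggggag
G4 only, TG repeat 1: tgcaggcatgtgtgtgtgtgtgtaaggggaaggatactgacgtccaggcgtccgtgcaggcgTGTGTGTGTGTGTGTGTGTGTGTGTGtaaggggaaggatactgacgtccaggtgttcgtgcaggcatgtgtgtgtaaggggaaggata

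The last pair held ATAC peaks in both replicates and no G4 peak in either. The first lay in intergenic sequence, -6390 bp from the start of Stard10, at chr7:101310721-101310870, plus strand, and carries a CTCF core. The second lay -252 bp from the start of Abhd17a at chr10:80590652-80590801, plus strand, and carries the octamer read by POU factors such as OCT4.
ATAC only, CTCF 1: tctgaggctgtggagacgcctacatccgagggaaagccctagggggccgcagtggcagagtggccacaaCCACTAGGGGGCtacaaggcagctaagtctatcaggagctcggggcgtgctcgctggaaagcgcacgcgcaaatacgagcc
ATAC only, OCT 1: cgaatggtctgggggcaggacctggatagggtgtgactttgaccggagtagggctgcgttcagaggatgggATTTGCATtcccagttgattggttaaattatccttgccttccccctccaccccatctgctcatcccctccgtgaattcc

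The ATAC replicates resembled each other and the G4 replicates did not. G4 replicate 1 rested on 2961038 tags after removal of redundant ones, 63.0% of its total, and G4 replicate 2 on 24588605, 88.2% of its total. The ATAC libraries held 5976014 and 7499296 tags. G4 peaks covered 3.36% of the sequenced genome in replicate 1 and 15.2% in replicate 2, whereas ATAC peaks covered 1.71% and 2.19%. Median peak length was 599 and 804 bp for G4 and 518 and 536 bp for ATAC. The median G4 peak held 6 tags in replicate 1 and 27 in replicate 2, so a weak peak of the shallow library rests on few reads. Of the ATAC peaks of replicate 1, 83.9% overlapped one of replicate 2, and in the other direction 67.2% did. Of the G4 peaks of replicate 1, 61.3% overlapped one of replicate 2, and only 20.8% in the other direction. The stretches that both replicates shared are called replicated sites, and there were 87795 of them for G4 and 66518 for ATAC.

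Gene annotation was first used to check the cells. Of the 14 ES cell marker genes, 13 in each list (92.9%) had an ATAC peak within 1 kb of the transcription start site (TSS). Of all TSS, 59.4% and 63.5% had one in replicates 1 and 2. In both lists 12 markers had one, among them Pou5f1 (OCT4), Sox2, Klf4 and Zfp42. Nanog, a core pluripotency factor, had such a peak in replicate 2 only, and Esrrb in replicate 1 only. At Pou5f1, Lin28a and Tdgf1 the peak reached into this window but its summit lay outside it in each list. The Pou5f1 summits lay at -1097 and -1885 bp, those of Lin28a at 1211 and 1224 bp and those of Tdgf1 at -1680 and -1435 bp. Of 7 annotated genes specific to other tissues, 1 had an ATAC peak in each list (Apoa2, a liver apolipoprotein, whose summits lay 1060 and 1049 bp downstream of its TSS). Of the 8 fibroblast markers, 5 (62.5%, near the share of all TSS) had an ATAC peak in each list, including Col1a1 and Thy1. Fap and Postn had no peak in any list. How much residual feeder chromatin adds to these lists was not tested. On chromosome Y, which a female line lacks, 92 of 93 TSS had no peak in any list. The lists still held 216 and 141 G4 peaks and 135 and 189 ATAC peaks on this chromosome, and their source was not tested.

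ATAC peaks lay at promoters and 5′ UTRs far more often than G4 peaks, while G4 peaks were spread through introns and intergenic sequence. Each peak was assigned by its centre, and promoters reached 1000 bp before and 100 bp past the start of any RefSeq transcript. Promoters took 3.58% and 1.80% of the G4 peaks of replicates 1 and 2, against 13.6% and 11.8% of the ATAC peaks. Windows of 500 bp laid every 5000 bp along the genome fell in promoters in 1.21% of cases. The promoter share was thus 2.95 and 1.48 times that of the genome for G4, and 11.2 and 9.68 times for ATAC.

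The lists did not overlap for this value, and the difference of G4 minus ATAC was -9.97 percentage points. With 2 lists against 2, the exact two-sided permutation test gave p = 0.333, the smallest it can give, so no comparison between the assays here could pass 0.05. The number of promoter peaks was nevertheless not small in the G4 lists, with 5016 and 7017 peaks against 10666 and 11403 in the ATAC lists. Intergenic sequence took 52.4% and 48.7% of G4 peaks and 41.7% and 42.7% of ATAC peaks, against 59.2% of the genome (8.37 percentage points higher for G4, exact permutation p = 0.333). With the 78571 best-ranked peaks of each list the difference was 2.16 and the lists interleaved (48.1% and 40.1% against 41.7% and 42.3%, exact permutation p = 1.00), and at −log10 p of at least 5 it was 4.02. Introns took 36.2% and 41.7% of G4 peaks and 36.0% and 36.5% of ATAC peaks, close to their 36.1% of the genome. G4 exceeded ATAC in introns by 2.68 percentage points (exact permutation p = 0.667), and without G4 replicate 2 the direction turned, to -0.0495.

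Coding exons were over-represented to a like degree in all 4 lists. They took 4.55% and 4.38% of G4 peaks and 3.87% and 4.15% of ATAC peaks, from 3.05 to 3.6 times their share of the genome. The 5′ UTRs took 0.847% and 0.348% of G4 peaks, below the 1.53% and 1.41% of ATAC peaks. The 3′ UTRs took between 0.869% and 1.24% of every list, and the G4 and ATAC values interleaved.

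**Figure D1:**
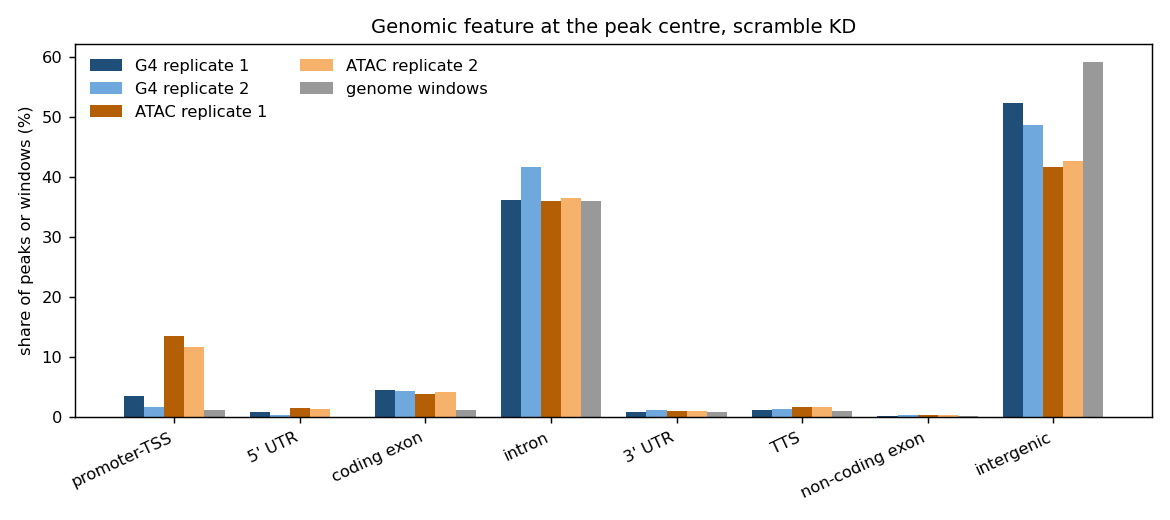
Share of peaks (%, vertical axis) by the genomic feature at the peak centre for the G4 and ATAC lists of each replicate, with the share of 500 bp genome windows in grey. Promoter-TSS bars are tallest for ATAC (13.6% and 11.8%) and intergenic bars taller for G4 (52.4% and 48.7%).

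Around the TSS, ATAC summits gathered on both sides of the start and G4 summits gathered downstream of it. Summits lay within 1 kb of a TSS for 6.92% and 3.45% of G4 peaks and for 18.9% and 16.6% of ATAC peaks, against 1.84% of genome windows. Among these near summits, 72.5% and 69.8% of the G4 summits lay downstream, with median positions of 191 and 193 bp. The ATAC summits were divided almost evenly, with 55.4% and 56.4% downstream and medians at 32.0 and 38.0 bp. The G4 medians agreed between replicates to within 2 bp even though the lists differed in depth and length. Only 36.5% and 31.3% of the near G4 summits lay within 200 bp of the TSS, against 53.9% and 54.7% of the ATAC summits. A summit is the tallest point of a peak, and it was set by different versions of the peak caller in the assays.

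Counting any base of a peak within 1 kb, 7.67% and 4.79% of G4 peaks and 20% and 17.6% of ATAC peaks touched a TSS neighbourhood, a difference of -12.6 percentage points (exact permutation p = 0.333). Far from genes the order was the other way round. Summits lay more than 100000 bp from any TSS in 27.6% and 22.8% of G4 peaks, 16.7% and 16.9% of ATAC peaks and 38.3% of genome windows. Median distances were 37120 and 33459 bp for G4, 18959 and 20283 bp for ATAC and 59565 bp for the genome windows.

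**Figure D2:**
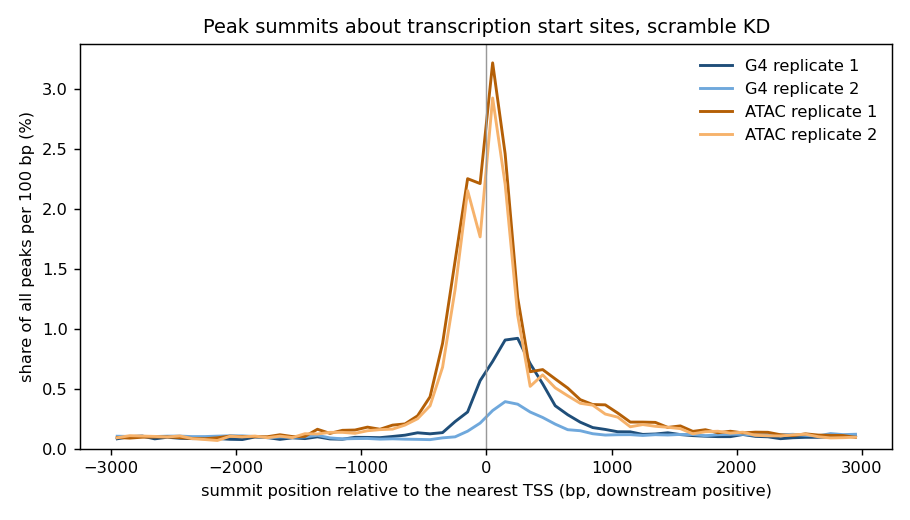
Share of all peaks whose summit falls in each 100 bp step (%, vertical axis) against position relative to the nearest TSS (bp, downstream positive), 1 line per list. ATAC lines peak on both sides of the TSS, and G4 lines peak downstream of it, with medians of 191 and 193 bp among summits within 1 kb.

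The sequences under the summits differed between the assays and between the G4 replicates. A G4 motif stood within the 500 bp about the summit in 33.7% and 23.2% of G4 peaks and in 16.5% and 16.6% of ATAC peaks, against 8.31% of genome windows. G4 lists lay 11.9 percentage points above ATAC lists (exact permutation p = 0.333), and most G4 peaks held no such motif. The difference was 6.67 without G4 replicate 1 and 17.2 without G4 replicate 2. Allowing loops of up to 12 bases raised the shares to 42.2% and 35.6% for G4 and to 29.7% and 29.5% for ATAC. Median GC content was 47.8% and 50.6% at G4 summits and 51.8% and 51.6% at ATAC summits, above the 41.4% of the genome (G4 minus ATAC, -2.50 percentage points, exact permutation p = 0.333). With the 78571 best-ranked peaks of each list the medians were 49.4% and 54.2% for G4 and 51.8% and 52.4% for ATAC, which interleaved (-0.300, exact permutation p = 1.00), and without G4 replicate 1 the difference was -1.10. The order of the assays in GC content thus depended on which G4 peaks were used.

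TG repeats, runs of the dinucleotide that form alternative DNA structures of their own, were in 19.1% of the peaks of G4 replicate 1 and in 5.53% of those of replicate 2. They were in 2.39% and 2.37% of ATAC peaks and 4.76% of genome windows. Repeats and low-complexity bases, soft-masked in the reference, made up a median of 45.8% and 20.4% of the windows about G4 summits and 11.4% and 12.6% about ATAC summits. The motifs of promoter and insulator factors were instead more frequent in ATAC peaks. The letters GGGCGGGG, the GC box read by SP and KLF factors, were in 6.16% and 4.18% of G4 and 10.9% and 10.5% of ATAC peaks. CTCF cores were in 0.207% and 0.282% of G4 peaks, near the 0.248% of genome windows, and in 3.22% and 3.65% of ATAC peaks. Motifs were searched on both strands, and a GC box can lie inside a G4 motif.

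The G4 replicates also ordered their peaks differently. In the 10% of G4 replicate 1 with the smallest p-values, 36.9% of peaks held a TG repeat and 24.5% a G4 motif. In the same part of replicate 2, 2.84% held a TG repeat, 21.5% held a G4 motif and the median GC content was 55.2%. Down the list of replicate 1 the TG repeat share fell to 10.4%, whereas in replicate 2 it lay between 2.84% and 6.40% throughout. The strongest peaks of the shallow list were thus often TG repeats, and the strongest peaks of the deep list were long, GC-rich stretches with a median of 2105 bp. The G4 motif share was highest in the middle of the replicate 1 list, at 41.2%. Depth, the share of redundant tags and sequence moved together between these lists, and their parts cannot be told apart with 1 library each.

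**Figure D3:**
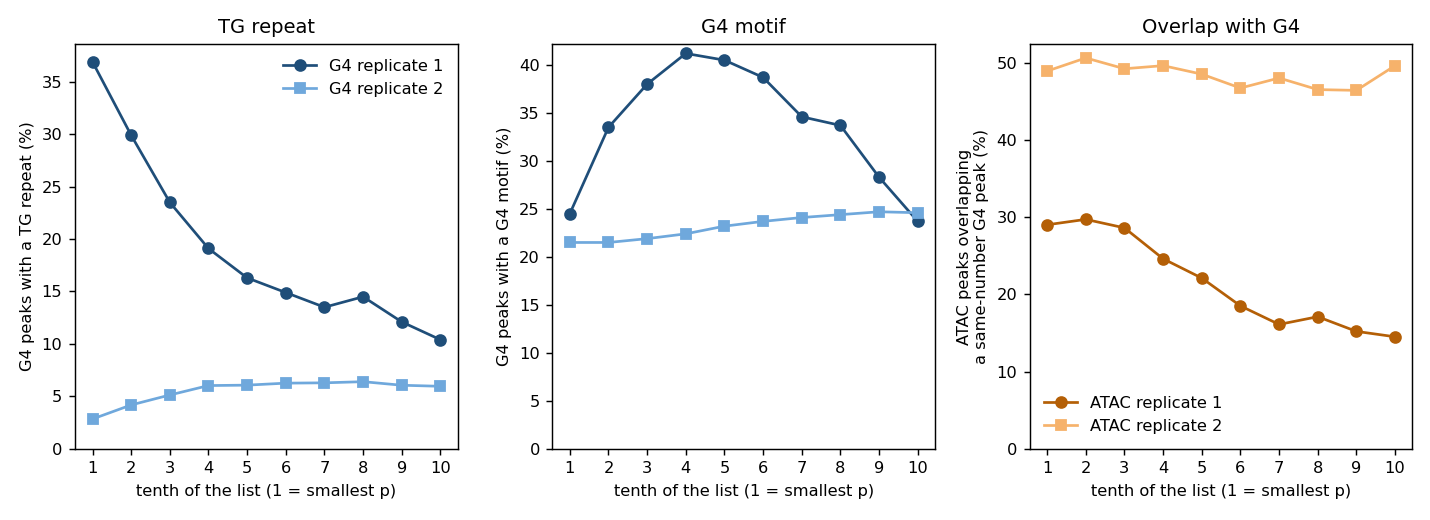
Peaks in 10 equal parts of each list ordered by p (1 is the smallest p, horizontal axis), with the share of G4 peaks holding a TG repeat (left), the share holding a G4 motif (middle) and the share of ATAC peaks overlapping a G4 peak of the same replicate number (right), all in %. The TG repeat share starts at 36.9% in G4 replicate 1 and at 2.84% in G4 replicate 2.

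Few G4 peaks lay in open chromatin, and the share of open chromatin covered by G4 peaks differed between the G4 lists. Of the G4 peaks, 11.7% in replicate 1 and 11.7% in replicate 2 overlapped an ATAC peak of the same number by at least 1 bp. Of the ATAC peaks, 21.5% and 48.4% overlapped a G4 peak (G4 minus ATAC, -23.3 percentage points, exact permutation p = 0.333). The overlapping peaks were nearly equal in number from either side. They were 16398 G4 and 16926 ATAC peaks in replicate 1, and 45514 and 46949 in replicate 2. The direction of this difference in shares thus follows the lengths of the lists, and the test says nothing more about the assays. With the 78571 best-ranked peaks of each list, the shares were 13.2% and 14.9% for G4 and 14.0% and 16.1% for ATAC, a difference of -1.02, and at −log10 p of at least 5 it was -7.96. Leaving out G4 replicate 1 gave -36.2, G4 replicate 2 gave -9.58, ATAC replicate 1 gave -35.5 and ATAC replicate 2 gave -11.1. Shared bases came to 7.1 and 24.3 Mb. In replicate 1 this was 4.66 times the product of the coverages of its lists, and in replicate 2 it was 2.76 times.

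Position relative to genes separated the peaks that overlapped from those that did not. Within 1 kb of a TSS, 65.9% of G4 peaks in replicate 1 and 57.3% in replicate 2 overlapped an ATAC peak, but farther away 7.20% and 9.39% did. Of the ATAC peaks near a TSS, 47.5% and 63.8% overlapped a G4 peak, and of those farther away 15.1% and 45.1%. Along the ATAC list of replicate 1, ordered by p, the overlap went from 29.0% of the strongest 10% to 14.5% of the weakest. Along the list of replicate 2 it lay between 46.4% and 50.6% throughout. At sites shared in all 4 lists, the nearest G4 summit stood a median of 218 bp from the ATAC summit in replicate 1 and 278 bp in replicate 2.

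Sorting replicated sites by the other assay gave 3 classes with different sequence and position. G4 only sites, replicated for G4 and with no ATAC peak in either list, numbered 70274, or 80.0% of the replicated G4 sites. Sites with both assays in both replicates numbered 12420, or 18.7% of the replicated ATAC sites. ATAC only sites numbered 32130, or 48.3% of them, and the other 21968 overlapped a G4 peak of 1 list. The counts followed the G4 lists used. Without G4 replicate 1 there were 31473 sites with both, and without G4 replicate 2 there were 51072 ATAC only sites. G4 only sites numbered 338866 and 119005 without G4 replicates 1 and 2, and with peaks set to 500 bp about the summit the sites with both fell to 6675.

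Sites with both assays were the GC-rich, gene-proximal class. Sequence was read in the 500 bp about the middle of each replicated site, which for sites with both is the ATAC site unless stated. Their median GC content was 62.6%, against 50.4% in G4 only and 48.0% in ATAC only sites, and their median observed over expected CpG ratio was 0.605, against 0.238 in each of the others. They lay within 1 kb of a TSS in 42.4% of cases, against 2.80% of G4 only and 11.9% of ATAC only sites. Promoters held 28.5% of them, against 1.57% and 9.45%. The GC box was in 21.4% of sites with both, 5.55% of G4 only sites and 7.22% of ATAC only sites.

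G4 only sites were mostly intronic and intergenic, as were ATAC only sites. Of the classes, G4 only held most TG repeats. These were in 22.9% of G4 only sites, against 3.40% of sites with both when the windows were centred on G4 sites in the same way. In windows centred on ATAC sites, sites with both held TG repeats in 2.02% and ATAC only sites in 2.36%. A G4 motif was in 37.6% of G4 only sites and in 36.1% of sites with both centred on the G4 site, so these classes were close. With loops of up to 12 bases the order turned, with 47.5% against 59.0%. Centred on the ATAC site, 28.0% of sites with both and 11.7% of ATAC only sites held a G4 motif. Taken apart, 34.4% held a G4 motif without a TG repeat, 19.7% a TG repeat without a G4 motif and 3.14% held both, which left 42.7% with neither. Introns held 42.5% of G4 only sites and intergenic sequence 46.7%. The shares were 37.0% and 48.2% of ATAC only sites and 36.1% and 59.2% of genome windows. Coding exons held 5.72% of G4 only sites, against 1.61% of ATAC only sites and 1.27% of genome windows. They held 11.6% of sites with both centred on the G4 site. The median distance of G4 only sites to a TSS was 30136 bp. Near a TSS, where 1969 of them lay, the median GC content was 59.4% and 48.4% held a G4 motif, below the 53.3% of near sites with both centred on the G4 site.

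ATAC only sites held the octamer and the ESRRB letters more often than the other replicated ATAC sites, but not the CTCF core. CTCF cores were in 3.87% of them and in 4.41% of the replicated ATAC sites with G4 in 1 list, against 1.34% of sites with both, 0.204% of G4 only sites and 0.248% of genome windows. The octamer was in 5.88%, against 2.77% of those with G4 in 1 list, 1.19% of sites with both and 1.70% of G4 only sites, and in 4.38% of genome windows, a sequence that is itself AT-rich. The ESRRB letters TCAAGGTCA were in 2.22%, against 1.31%, 0.596% and 0.873% of the same classes. The 3809 ATAC only sites near a TSS held the ETS letters CCGGAAGT in 9.48%, against 5.12% of the 5271 near sites with both. These shares describe the letters of each class, and no binding was measured.

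**Figure D4:**
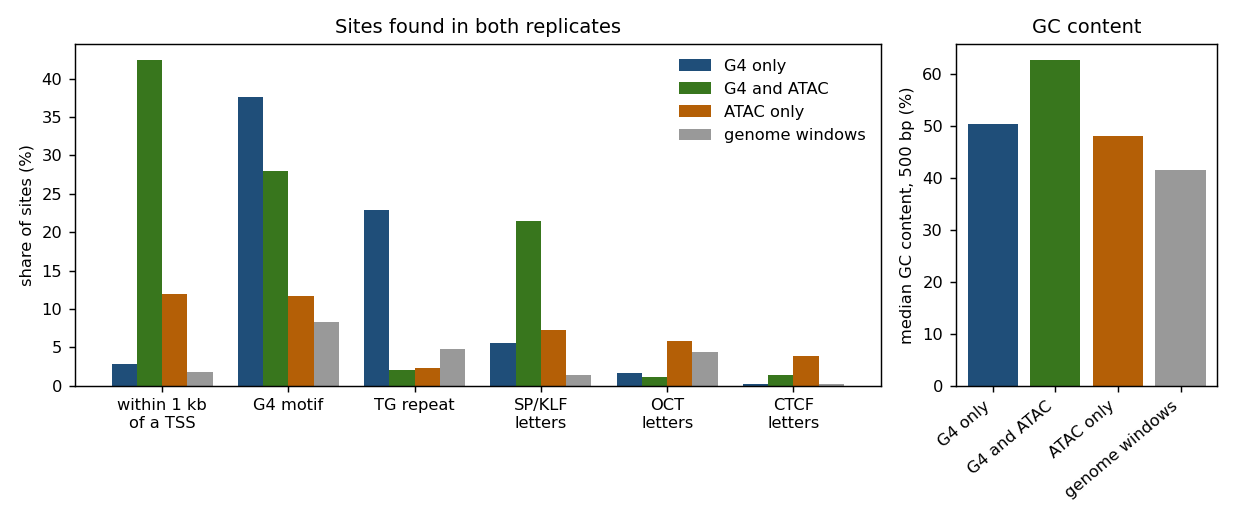
Share of sites (%, vertical axis, left) near a TSS or holding each motif for the G4 only, G4 and ATAC, and ATAC only classes of replicated sites, with genome windows in grey, and median GC content of the same classes (right). Sites with both assays lead in TSS proximity (42.4%) and GC content (62.6%), and G4 only sites in TG repeat (22.9%). Sites with both are drawn centred on the ATAC site (G4 motif 28.0%, but 36.1% centred on the G4 site, against 37.6% of G4 only sites).

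Away from genes, sites with both assays fell into 2 kinds by repeat content. Of the 7149 sites with both that lay farther than 1 kb from a TSS, 49.0% were soft-masked over more than 50% of their window, against 27.4% of genome windows. The 3505 masked ones were GC-rich, with a median of 62.4%, yet held a G4 motif in only 2.2% of cases. The 3635 with at most 50% masked had a median GC content of 59.6% and held a G4 motif in 33.1%. The low share of the masked kind depended on the loop limit. With loops of up to 12 bases the shares were 26.2% and 53.0%, against 12.9% of genome windows. H3K9me3, a mark of heterochromatin, was listed at 18.2% and 15.8% of the masked kind in its scramble KD replicates 1 and 2. It was listed at 3.96% and 1.62% of the unmasked kind and at 3.69% and 2.93% of genome windows. ATRX, a chromatin remodeller that can bind G4 DNA, was listed at 0.371% and 0.599% of the masked and 1.4% and 0.743% of the unmasked sites, and its lists covered only 0.135% and 0.301% of the genome. H3K9me3 overlap was likewise higher in masked than in unmasked ATAC only sites, 18.7% and 8.47% against 2.73% and 1.04%. Reads from near-identical repeat copies cannot be placed with certainty, and their part in these sites was not tested.

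At the level of genes, 26182 RefSeq genes were each given the TSS of 1 transcript, and a peak counted when any of its bases lay within 1 kb. G4 peaks marked 41.2% and 64.1% of TSS and ATAC peaks 59.4% and 63.5%. The values of the assays interleaved, G4 minus ATAC was -8.80 percentage points (exact permutation p = 1.00), and 2.65 without G4 replicate 1 and -20.3 without G4 replicate 2. At −log10 p of at least 5 the lists no longer overlapped (-29.7), nor with the 78571 best-ranked peaks of each, where G4 marked 27.3% and 22.3% and ATAC 59.4% and 61.1% (-35.5). In both replicates, G4 peaks marked 34.7% and ATAC peaks 58.2% of TSS. Both assays marked 6976 TSS in both replicates, or 26.6%. G4 only TSS numbered 1349, or 5.15%, and ATAC only TSS 3070, or 11.7%. No list had a peak at 4353 TSS, or 16.6%, and the other 10434, or 39.9%, differed between replicates of an assay. Of those, 3741 had ATAC in both replicates and G4 in replicate 2 alone.

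The classes changed with the lists, the peaks and the window used. TSS with both, without G4 replicate 1, rose to 10717 and G4 only TSS to 4709. Without G4 replicate 2, ATAC only TSS rose to 6811 and TSS with neither to 7713. Without ATAC replicate 2, G4 only TSS came to 1989. With equal numbers of top-ranked peaks, 1644 TSS had both and 8360 ATAC only.

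CpG content ordered the classes of TSS. A promoter was called high CpG when a 500 bp window had GC content above 55% and an observed over expected CpG ratio above 0.75, and low CpG when none reached 0.48. High CpG promoters are mostly those of housekeeping and developmental genes. ATAC peaks marked 94.7% and 97.9% of the 11179 high CpG TSS and 15.5% and 19.2% of the 10187 low CpG TSS. G4 peaks marked 63.8% and 71.3% of the high CpG and 17.5% and 54.2% of the low CpG TSS. Of the 4816 intermediate CpG TSS, ATAC peaks marked 70.4% and 77.3% and G4 peaks 38.7% and 68.2%. Nearly all high CpG TSS were thus open, but of the 15242 TSS with ATAC in both replicates 10541 were high CpG, and the G4 share of low CpG TSS differed widely between the lists. Of high CpG TSS, 48.0% had both assays, 16.5% ATAC only and 1.23% G4 only. Of low CpG TSS, 3.68% had both, 3.63% ATAC only, 9.69% G4 only and 38.8% no peak in any list. Without G4 replicate 1, low CpG TSS with G4 only rose from 987 to 3937 and high CpG TSS with ATAC only from 1843 to 3097, and without G4 replicate 2 the latter came to 3918.

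Sequence within 500 bp of the TSS differed along the classes too. A G4 motif was at 67.2% of TSS with both, 45.1% of G4 only, 39.8% of ATAC only and 7.88% of TSS with neither. Within the high CpG class the order of both and ATAC only was the same, 69.8% against 46.3%, with median GC contents of 63.9% and 56.6%. The order of both and G4 only turned there, since the 138 high CpG G4 only TSS held a motif at 73.2%. Motifs lay on the non-template strand at 46.5% and on the template strand at 39.2% of TSS with both. ETS letters, frequent in housekeeping promoters, were at 13.4% of ATAC only TSS and 7.73% of TSS with both, and GC boxes at 35.4% and 55.4%. At TSS with both, the summit of the best-ranked G4 peak lay a median of 212 bp downstream in replicate 1 and 320 bp in replicate 2. The ATAC summit lay at -5.50 and -4.00 bp.

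Protein-coding and long non-coding (lncRNA) genes differed less in G4 than in ATAC. G4 peaks marked 44.0% and 65.1% of the 21000 coding TSS and 31.1% and 60.9% of the 3319 lncRNA TSS. ATAC peaks marked 65.0% and 69.0% of coding and 42.3% and 47.7% of lncRNA TSS. The coding minus lncRNA difference was 12.9 and 4.27 percentage points for G4 and 22.7 and 21.4 for ATAC, so the assays differed by -13.5 (exact permutation p = 0.333). Among high CpG promoters, coding and lncRNA TSS were close in all 4 lists, with both assays at 47.8% and 49.5%. The lower lncRNA shares thus went with fewer high CpG promoters, 755 of 3319 genes.

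Replication-dependent histone genes, which supply core and linker histones in S phase, had the highest ATAC only share of the gene lists. The list members below were chosen with earlier results of these data known, so the counts are descriptions and carry no test. All 64 had an ATAC peak in each replicate, while 12 and 16 had a G4 peak in replicates 1 and 2. In all, 44 were ATAC only, or 68.8%, against 11.7% of all TSS and 16.5% of high CpG TSS, and 8 had both. Without G4 replicate 2 the ATAC only genes numbered 52, and without G4 replicate 1 the genes with both numbered 16. All 12 H4 genes of the list were without a G4 peak in replicate 1 and 1 had one in replicate 2. H4c3 had ATAC peaks of 10.9 and 9.56-fold enrichment and H3c6 of 8.86 and 8.55-fold, with no G4 peak. Fold enrichment is the caller's ratio of the summit over its local background. H2ac19, a histone H2A gene, had peaks of both assays, with G4 folds of 8.46 and 5.36 and ATAC folds of 7.94 and 5.80. G4 motifs were near 10.9% of histone TSS, against 42.8% of all TSS and 62.3% of high CpG TSS. The median GC content of the 1 kb about histone TSS was 54.2%, against 54.4% and 61.7%. Histone genes are clustered near-copies and neighbours share peaks, so the 64 are not separate observations.

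Ribosomal protein genes of the cytosol, with their named paralogs, showed the same kind of split. ATAC peaks marked 80 and 82 of the 84 TSS and G4 peaks 24 and 34. There were 35 ATAC only genes, or 41.7% against 11.7% of all TSS and 16.5% of high CpG TSS. Both marked 10, or 11.9% against 26.6%, and G4 only 0, and without G4 replicate 2 the ATAC only genes numbered 56 and those with both 24. There were 31 genes with both when G4 replicate 1 was left out. Rps29, a small subunit protein, had ATAC folds of 14.4 and 12.1 and Rpl37, of the large subunit, 11 and 11.1, with no G4 peak. Rplp0, the stalk protein of the large subunit, had both, with G4 folds of 7.81 and 6.89 and ATAC folds of 6.24 and 8.91. Among the high CpG members alone, 30 of 75 were ATAC only. Their processed pseudogenes can take reads from them.

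KRAB and other zinc finger genes named Zfp, and cell cycle genes, leaned the same way. Of 365 Zfp genes, 140 were ATAC only, or 38.4% against 11.7% of all TSS. Both marked 92, or 25.2%, near the 26.6% of all TSS, while 3 had G4 only (0.822% against 5.15%) and 11 no peak (3.01% against 16.6%). Zfp868 had the ATAC folds 17.8 and 17.1, and Zfp146 had 16.1 and 16.3, without G4. Without G4 replicate 2, 217 were ATAC only, and without G4 replicate 1, 169 had both. Of 25 cell cycle and replication genes, 21 were high CpG, a class of which ATAC marked 94.7% and 97.9%. All 25 had ATAC peaks in each list. ATAC only marked 9, or 36.0%, against 11.7% of all TSS and 16.5% of high CpG TSS. Both marked 7, or 28.0%, near the 26.6% of all TSS and below the 48.0% of high CpG TSS. Without G4 replicate 2, 16 were ATAC only, and without G4 replicate 1, 14 had both. Mcm7, a subunit of the replicative helicase, was ATAC only with folds of 7.94 and 7.08, and E2f1, the S phase transcription factor, had both, with G4 folds of 16.3 and 6.51 and ATAC folds of 9.35 and 11.1.

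To set sequence beside these classes, the 200 bases upstream of a promoter of each kind are printed from RefSeq promoter records on GRCm38. They are the best-ranked member of the Hox list with both assays and an upstream G4 motif, and the best-ranked ATAC only member of the ribosomal and histone lists without one in these 200 bases. Members were passed over when they had no single RefSeq promoter record at the TSS used, or when an annotated exon reached into the 200 bases. The H4c17 TSS did have a G4 motif within 500 bp, outside the stretch shown. G4 motifs on either strand are in capitals. Hoxd13, a homeobox gene of the distal limb, lay at chr2:74668025-74668224, plus strand. Rpl10, of the large ribosomal subunit, lay at chrX:74270616-74270815, plus strand. H4c17, a histone H4 gene, lay at chr13:21811546-21811745, plus strand.
Hoxd13: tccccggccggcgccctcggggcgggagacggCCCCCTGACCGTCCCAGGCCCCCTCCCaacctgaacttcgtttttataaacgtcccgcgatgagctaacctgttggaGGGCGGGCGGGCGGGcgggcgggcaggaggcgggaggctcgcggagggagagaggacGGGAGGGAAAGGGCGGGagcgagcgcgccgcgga
Rpl10: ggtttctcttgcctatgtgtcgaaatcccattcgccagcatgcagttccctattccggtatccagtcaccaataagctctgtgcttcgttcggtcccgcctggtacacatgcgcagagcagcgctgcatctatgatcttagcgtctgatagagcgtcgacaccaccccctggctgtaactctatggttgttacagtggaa
H4c17: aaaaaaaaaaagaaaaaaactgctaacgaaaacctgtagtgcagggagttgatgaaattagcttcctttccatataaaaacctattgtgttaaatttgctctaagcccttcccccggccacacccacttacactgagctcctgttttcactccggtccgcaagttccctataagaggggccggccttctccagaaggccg

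Developmental regulators were at the other end. Of 30 genes for transcription factors of differentiated lineages, 24 and 29 had a G4 peak and 23 and 26 an ATAC peak. Both assays in both replicates marked 19, or 63.3%, against 26.6% of all TSS and 48.0% of high CpG TSS, to which 18 of the 30 belong. G4 only marked 1 gene and ATAC only 0. Neurog1, a neural determination factor, had G4 folds of 16.3 and 5.08 and ATAC folds of 6.83 and 9.43. Gata2, a blood and trophoblast factor, was G4 only, with folds of 14.4 and 6.09.

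The 39 Hox genes, which pattern the body axis, leaned the same way relative to all TSS. G4 peaks marked 26 and 37 of them and ATAC peaks 27 in each list. Both assays in both replicates marked 19, or 48.7%, against 26.6% of all TSS but near the 48.0% of high CpG TSS. Of the 39, 24 were high CpG, and 14 of these (58.3%) had both. G4 only marked 5 Hox genes, or 12.8% against 5.15% of all TSS, among them Hoxb5 and Hoxb6. Without G4 replicate 1 the G4 only genes numbered 10. Hoxd11 was the only ATAC only gene and Hoxb3 the only gene with no peak. Neighbouring Hox genes stand a few kilobases apart and can share a peak.

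**Figure D5:**
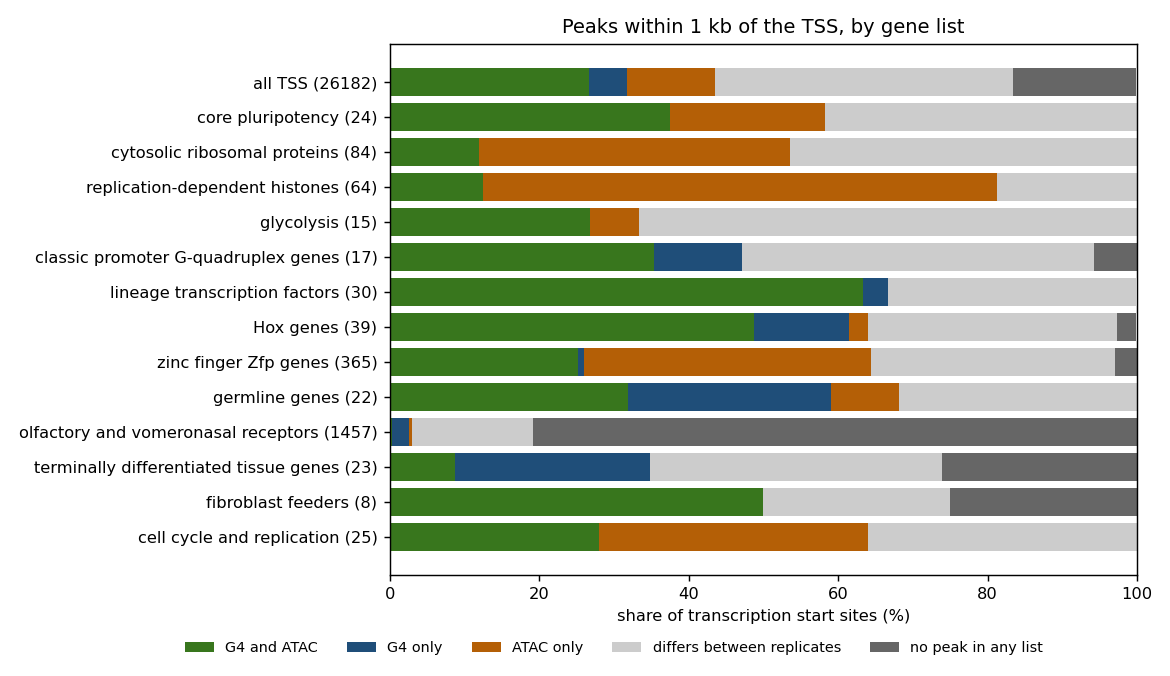
Share of TSS (%, horizontal axis) in each class for every gene list, with the number of genes in parentheses and all TSS at the top. ATAC only takes 68.8% of histone and 41.7% of ribosomal protein genes, both assays take 63.3% of lineage transcription factors, and 80.9% of olfactory and vomeronasal receptor genes had no peak in any list.

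Pluripotency genes, expressed in these cells, were open and divided in G4. Of 24 genes, 22 had an ATAC peak in each list, and 11 and 18 had a G4 peak. Both assays in both replicates marked 9, or 37.5% against 26.6% of all TSS. Of the 10 high CpG members, 8 (80.0%) had both, against 48.0% of high CpG TSS. ATAC only marked 5, or 20.8% against 11.7%, and G4 only 0, against 5.15%. Both marked 16 genes without G4 replicate 1, and without G4 replicate 2, 12 were ATAC only. Klf2 and Klf5, naive pluripotency factors, had both, with G4 folds of 15.3 and 7.86 at Klf2 and 10.8 and 5.75 at Klf5. ATAC folds were 4.63 and 4.31 at Klf2 and 13.9 and 13.7 at Klf5. Zfp42 (REX1), Dppa2, Dppa3 and Dppa4 were ATAC only, and Zfp42 had ATAC folds of 8.0 and 7.61. Pou5f1 had a G4 peak in replicate 2 only, with a fold of 5.36 and its summit 506 bp downstream of the TSS.

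Germline and tissue-specific genes had the highest G4 only shares of the gene lists. Of 22 germline genes, which are repressed by promoter methylation in most somatic cells, 17 and 20 had a G4 peak and 11 and 15 an ATAC peak. Both assays marked 7 and G4 only 6, or 27.3% against 5.15% of all TSS. Without ATAC replicate 2 the G4 only genes numbered 10, and without ATAC replicate 1, 11 genes had both. Tex101 and Tdrd9 were G4 only, each with folds of 19.0 and 6.89, and Sycp1, of the synaptonemal complex, had both, with G4 folds of 29.8 and 4.98. Of 23 genes of terminally differentiated tissues, 8 and 17 had a G4 peak (34.8% and 73.9%, against 41.2% and 64.1% of all TSS). An ATAC peak was at 2 and 3 of them (8.70% and 13.0%, against 59.4% and 63.5% of all TSS). G4 only marked 6, or 26.1%, against 5.15% of all TSS and 9.69% of low CpG TSS. Of the 23, 1 was high CpG. Without G4 replicate 1, G4 only marked 14 of the 23, and 3937 of the 10187 low CpG TSS. Among the 6 were Ckm, the muscle creatine kinase, with folds of 19.0 and 8.43, and Sftpc, a lung surfactant protein, with 18.9 and 12.3.

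Genes known for promoter quadruplexes in human cells were examined through their mouse counterparts. Of 17, 12 and 14 had a G4 peak and 11 and 14 an ATAC peak. A G4 motif was near 82.4% of their TSS, against 42.8% of all TSS and 62.3% of high CpG TSS. Both assays marked 6, or 35.3%, against 26.6% of all TSS and 48.0% of high CpG TSS, to which 14 of the 17 belong. G4 only marked 2, Src and Pdgfra. Ret, a receptor kinase, had G4 folds of 24.4 and 5.75 and ATAC folds of 7.58 and 7.33. Hif1a, the hypoxia factor, had no peak in any list. Of the 17, 10 had both without G4 replicate 1, and without ATAC replicate 2, 4 were G4 only. Of 15 glycolysis genes, 4 had both, or 26.7% against 26.6% of all TSS, 1 was ATAC only (Pgk1, with folds of 11.9 and 13.2) and 10 differed between replicates. Without G4 replicate 1, 10 glycolysis genes had both, and without G4 replicate 2, 7 were ATAC only.

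Olfactory and vomeronasal receptor genes, silent outside sensory neurons and poor in CpG, were largely without peaks. Of 1457 genes, 1178 had none in any list, or 80.9%, against 16.6% of all TSS and 38.8% of low CpG TSS. Of the 1457, 1 was high CpG. G4 peaks marked 60 and 239 of them and ATAC peaks 24 and 32. Vmn2r29 led the genome-wide order of coding genes with both assays, with G4 folds of 23.9 and 9.29 and ATAC folds of 19.6 and 17.5. Olfr270 was G4 only, with folds of 43.4 and 18.0. Receptor genes are a large family with near-identical members.

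Single coding genes were also ordered over the whole genome by their worst p-value rank within a class. Among TSS with both, Abtb1 had G4 folds of 24.4 and 9.57 and ATAC folds of 12.7 and 11.5. Its G4 summits lay at -759 and -3807 bp, so a fold can belong to a summit outside the 1 kb window. The same held in G4 replicate 2 for Src (6612 bp) and Ckm (-1431 bp), named above. Among G4 only TSS, Gnb3, a G protein subunit of cone photoreceptors, had folds of 23.9 and 8.16, and Aqp2, the kidney water channel, 38.0 and 9.96. Among ATAC only TSS, M6pr, a sorting receptor for lysosomal enzymes, had folds of 14.5 and 13.6 and Khsrp, an RNA-binding splicing factor, 13.3 and 13.7. Folds of the G4 lists differed in scale. The median fold was 10.8 in replicate 1, where the median peak held 6 tags, and 6.13 in replicate 2, where it held 27. The cause was not tested.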

How the data were processed

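The 4 deposited scramble KD peak lists (2 G4 ChIP-seq, 2 ATAC-seq) were used as the authors made them. Per the labels and file headers, reads were trimmed with Trim Galore 0.5.0 and aligned to mm10 with Bowtie2 2.3.4.1. G4 peaks were called with MACS 1.4.2 against 1 shared input of 23359214 tags, and ATAC peaks with MACS 2.2.7.1 without input, all at a p-value cutoff of 0.01. The deposited G4 lists give tag counts per peak, a score of -10 times log10 of p, and fold enrichment. The deposited ATAC lists give the pileup signal, −log10 p and fold enrichment. The peak lists of ATRX and H3K9me3 (MACS 1.4.3, per the file headers) were used for their positions only. Columns of p were used to rank peaks within a list.

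Peaks were set against RefSeq annotation and sequence on GRCm38 with Python 3.11.15, numpy 2.4.6, pandas 2.3.3 and scipy 1.17.1. Each share was compared between assays by an exact permutation test (two-sided, 2 lists against 2), which cannot go below p = 0.333. Peaks and genes are not replicates, so counts over them carry no test, and p-values measure only the spread between these lists. Of 26182 genes, 19529 matched a RefSeq promoter record. The scripts were tested on simulated data. Depth ranged from 2961038 to 24588605 tags kept per library.

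Genes were named by rule: per class, the first 6 coding genes genome-wide and up to 4 of each gene list by worst rank, with every marker gene. A few genes were picked from these for the text. Histone H4 counts were chosen after the values were seen. The lists compared, the gene lists and the tests were chosen with earlier results of these data known. Alternatives were a stricter p, equal numbers of peaks, other windows, overlaps and motif loops, protein-coding genes only, each list left out in turn, and a replicate block. The TERRA KD lists were not used here.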

Additional observations from a re-analysis of the deposited data

How the results depend on the processing

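Of 89 alternatives to the 9 differences between assays, 87 kept the direction and 2 reversed: the share of TSS with a peak without G4 replicate 1 (2.65) and the share of peaks in introns without G4 replicate 2 (-0.0495). No design here can pass 0.05, so this is no measure of stability. Among the 9, the direction of the share of peaks overlapping the other assay follows the lengths of the lists. The counts of classes followed the G4 lists and the threshold. At −log10 p of at least 5, TSS with ATAC only, both and G4 only numbered 7822, 1799 and 773, and sites with both and G4 only 3171 and 22341. With every list cut to its 78571 best-ranked peaks, TSS with ATAC only, both, G4 only and neither numbered 8360, 1644, 736 and 6829, and sites with both and G4 only 3325 and 20119. With a TSS window of 3000 bp, TSS with ATAC only and neither numbered 1855 and 2589. With peaks of 500 bp about the summit, 6675 sites had both. The cause was not tested.

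Leaving out each list in turn, TSS with ATAC only ranged from 3131 to 6811, with both from 7095 to 10717, with G4 only from 1468 to 4709 and with neither from 4414 to 7713. Sites with ATAC only ranged from 35045 to 51072, with both from 13642 to 31473 and with G4 only from 71401 to 338866. The share of TSS with a peak ranged from -20.3 to 2.65 and the share in introns from -0.0495 to 5.41. For the gene lists, leaving out lists was added after seeing the data.

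Same-numbered G4 and ATAC lists did not deviate together (r = 0.0241 over 2660 stretches of 1000000 bp), so the replicate numbers were taken as names only. With a replicate block the promoter share difference was -9.97, the other differences were likewise as without it, and the exact sign-flip test cannot go below p = 0.5. With 2961038 tags, G4 replicate 1 limits which G4 sites can be replicated.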

Other observations

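The density of peaks differed among chromosomes in a like manner in both assays. Among autosomes, G4 replicate 1 held from 43.8 peaks per Mb on chromosome 13 to 75.3 on chromosome 8, followed by 71 on chromosome 6. G4 replicate 2 held 193 per Mb on chromosome 8, 179 on chromosome 6 and 198 on the gene-rich chromosome 11. ATAC replicate 1 held 40.2, 35.9 and 43.4 peaks per Mb on chromosomes 8, 6 and 11, and ATAC replicate 2 held 47.5, 43.4 and 53.0. Gene density was 10.1 TSS per Mb on chromosome 8, 9.33 on chromosome 6 and 16.3 on chromosome 11. These stood in the same order in G4 replicate 2 and both ATAC lists but not in G4 replicate 1. Other chromosomes broke that order. Chromosome 7, also at 16.3 TSS per Mb, held 169 peaks per Mb in G4 replicate 2 and 32.8 and 40.3 in the ATAC lists, fewer than chromosomes 8 and 6. Whether chromosomes 8, 6 or 11 are present in extra copies in the line was not tested.

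Chromosome X held fewer peaks than every autosome, with 39.2 and 79.6 G4 and 19.7 and 24.5 ATAC peaks per Mb, and 6.89 TSS per Mb. Of its 1126 TSS, 12.3% had both assays and 18.8% ATAC only, against 27.4% and 11.4% of autosomal TSS. High CpG TSS were 25.2% of those on chromosome X and 43.6% of autosomal ones. The part of CpG content in this contrast was not tested.

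Small RNA genes gave other mixtures. Of all TSS, 41.2% and 64.1% had a G4 peak and 59.4% and 63.5% an ATAC peak. Of 1228 miRNA genes, 28.9% and 62.9% had a G4 peak and 24.0% and 26.4% an ATAC peak. The miRNA G4 share in replicate 2 was thus near that of all TSS. Of 126 snoRNA genes, 11.9% and 29.4% had a G4 peak and 31.0% and 31.7% an ATAC peak. All 33 annotated rRNA genes, repeated copies whose reads cannot be placed with certainty, had a G4 peak in replicate 1, 26 had one in replicate 2, and 23 and 24 had an ATAC peak.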
